A study of Mus musculus with 2 samples.

Results

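The Slc25 mitochondrial carrier family was read in kidneys of mice with and without estrogen sulfotransferase (EST), 24 h after ischemic injury. Its members were the probe sets, each a group of short array probes that gives 1 value, whose only gene symbol in the platform annotation is Slc25a followed by a number. This rule found 93 of 45101 probe sets, which stand for 44 of 18194 genes with a singly named probe set.

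The WT AKI group was renal tissue of 3 male wild-type C57BL/6 mice (180 mg in all), and the EST KO AKI group was renal tissue of 6 male EST KO mice, also labelled C57BL/6 (124 mg in all). AKI stands for acute kidney injury. All animals had 30 min of warm bilateral renal ischemia followed by reperfusion. The protocol text shared by both groups gives an age of 8 weeks and names wild-type mice there. It gives no separate age for the EST KO mice, and the labels do not name the EST allele. Tissue was pooled within each genotype and read on 1 array per pool. The spread between mice is therefore unknown, no test between genotypes was possible, and precision is limited by having 1 array per genotype. No uninjured kidney was analysed here, and in whole tissue fewer cells of a type cannot be told apart from less RNA per cell.

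A protocol label calls the EST KO tissue liver, where the other labels say kidney. Of 8 hepatocyte markers on the array, 6 lay below background in both pools, among them Alb, the serum albumin gene (487.9 in WT and 522.3 in EST KO). The other 2 were above it in both pools and higher in EST KO: Cyp2e1, a cytochrome P450, read 11569 and 20655 (1.79-fold), and Cps1, a urea cycle enzyme, 730.7 and 811.7 (1.11-fold). Of 15 proximal tubule markers, 14 lay above background in the EST KO pool, and all of these but Slc5a12 (77.3) did so in the WT pool. Background here is the 95th percentile of 129 probe sets for olfactory, vomeronasal, taste receptor and keratin-associated genes, which is 676.1 for WT and 638.3 for EST KO. Sult1e1, which encodes EST, read 472.7 and 17.2, below background in both pools, so it does not check the genotype label.

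Slc25 proteins sit in the mitochondrial inner membrane, with a few exceptions in other membranes, and exchange metabolites between the cytosol and the matrix. They carry the ADP, ATP and phosphate of oxidative phosphorylation, the carboxylates and amino acids of shuttles and gluconeogenesis, fatty acids bound to carnitine, and cofactors and iron. The proximal tubule, the segment most exposed to ischemic injury, is rich in mitochondria and depends on them for ATP.

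Of the 44 member genes, 28 lay above background in both pools and 16 in neither, so no member owed its place to 1 pool alone. Each gene was read from its brightest probe set. Among the 28 measured members, 18 had more signal in the EST KO pool and 10 had less (64.3% higher), where 43.6% of all 7480 measured genes were higher. The median log2 ratio of EST KO to WT was 0.35 in the measured members and -0.06 in all measured genes. A difference of at least 2-fold was reached by Slc25a10 and Slc25a42, both higher, which is 7.14% of the measured members against 3.02% of all measured genes (4.43% counting both directions). No member was at least 2-fold lower, against 1.4% of all measured genes. These counts among 28 members are small and were not tested against the shares of all measured genes.

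**Figure D1:**
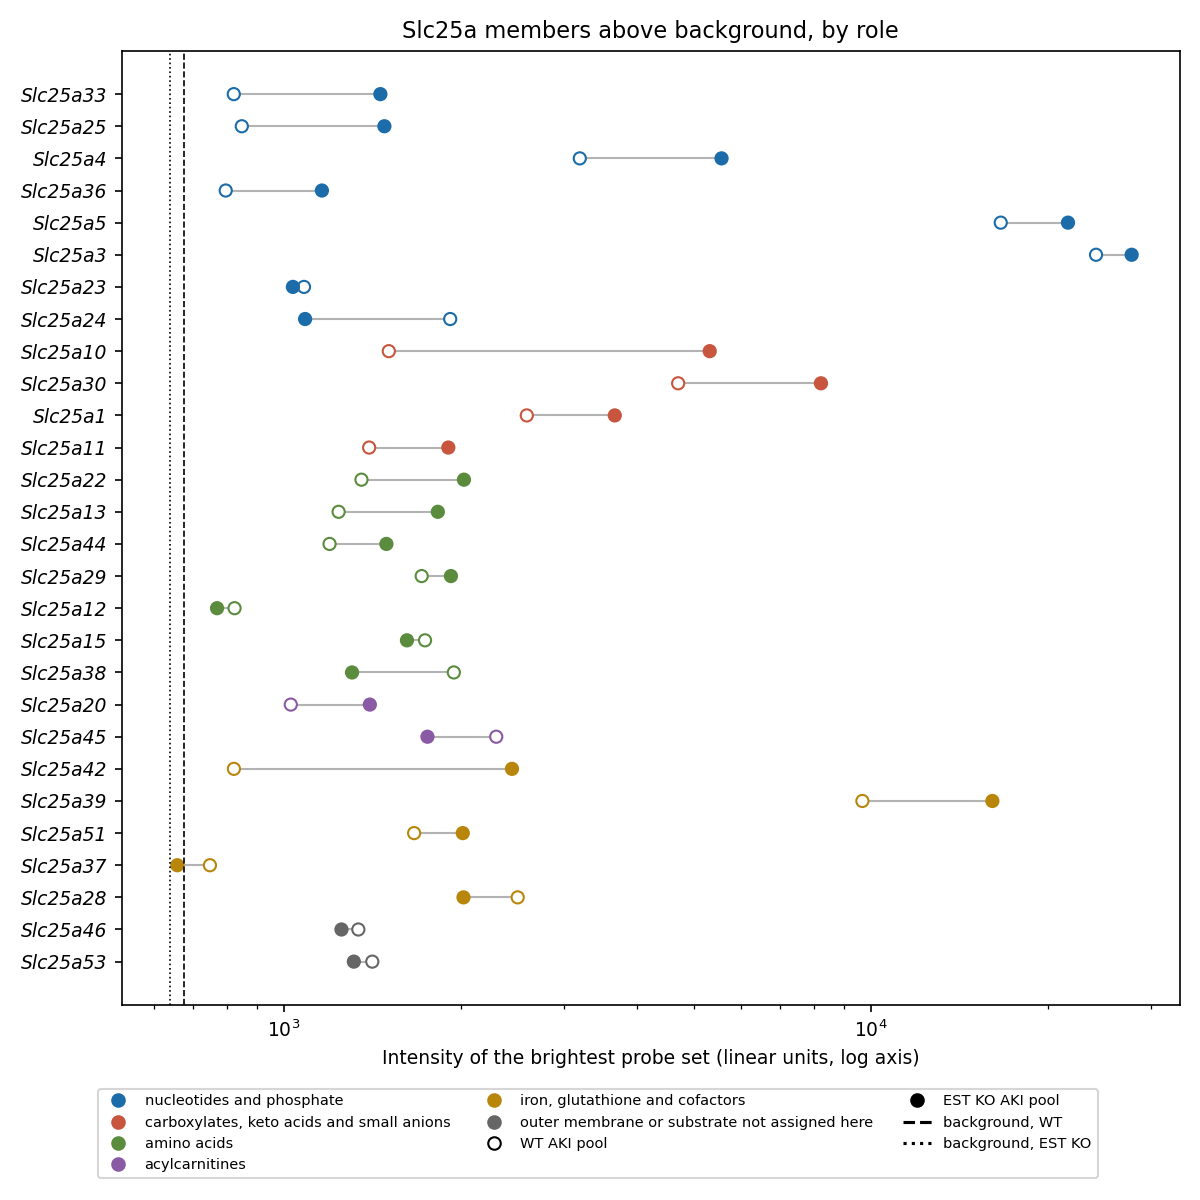
Intensity of the brightest probe set of each measured member in the WT AKI pool (open circles) and the EST KO AKI pool (filled circles), on a log axis, with colours for roles and vertical lines at the background of each array. All 28 members lie to the right of the background of their array, and the longest lines belong to Slc25a10 (1508 and 5313) and Slc25a42 (821.1 and 2445).

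These arrays allow 1 part of the error to be estimated, from genes with several probe sets. Such probe sets were read in the same pools on the same arrays, so their disagreement holds no spread between mice or arrays. Over 1663 genes with at least 2 such probe sets measured in both pools, the log2 ratios of the 2 brightest differed by a median of 0.21. The SD of these differences, divided by the square root of 2, was 0.28 and is taken as the SD of 1 ratio from probe sets alone. Among members the same difference had a median of 0.13 (10 genes). Of 11 members with at least 2 measured probe sets, 10 had all of them on the same side of 0, and the exception was Slc25a12. Counted by probe set, 50 of the 93 were measured and 8 of those were at least 2-fold higher (4 of Slc25a5, 2 of Slc25a10, 1 each of Slc25a30 and Slc25a42), against 3.26% of all 10673 measured probe sets.

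**Figure D2:**
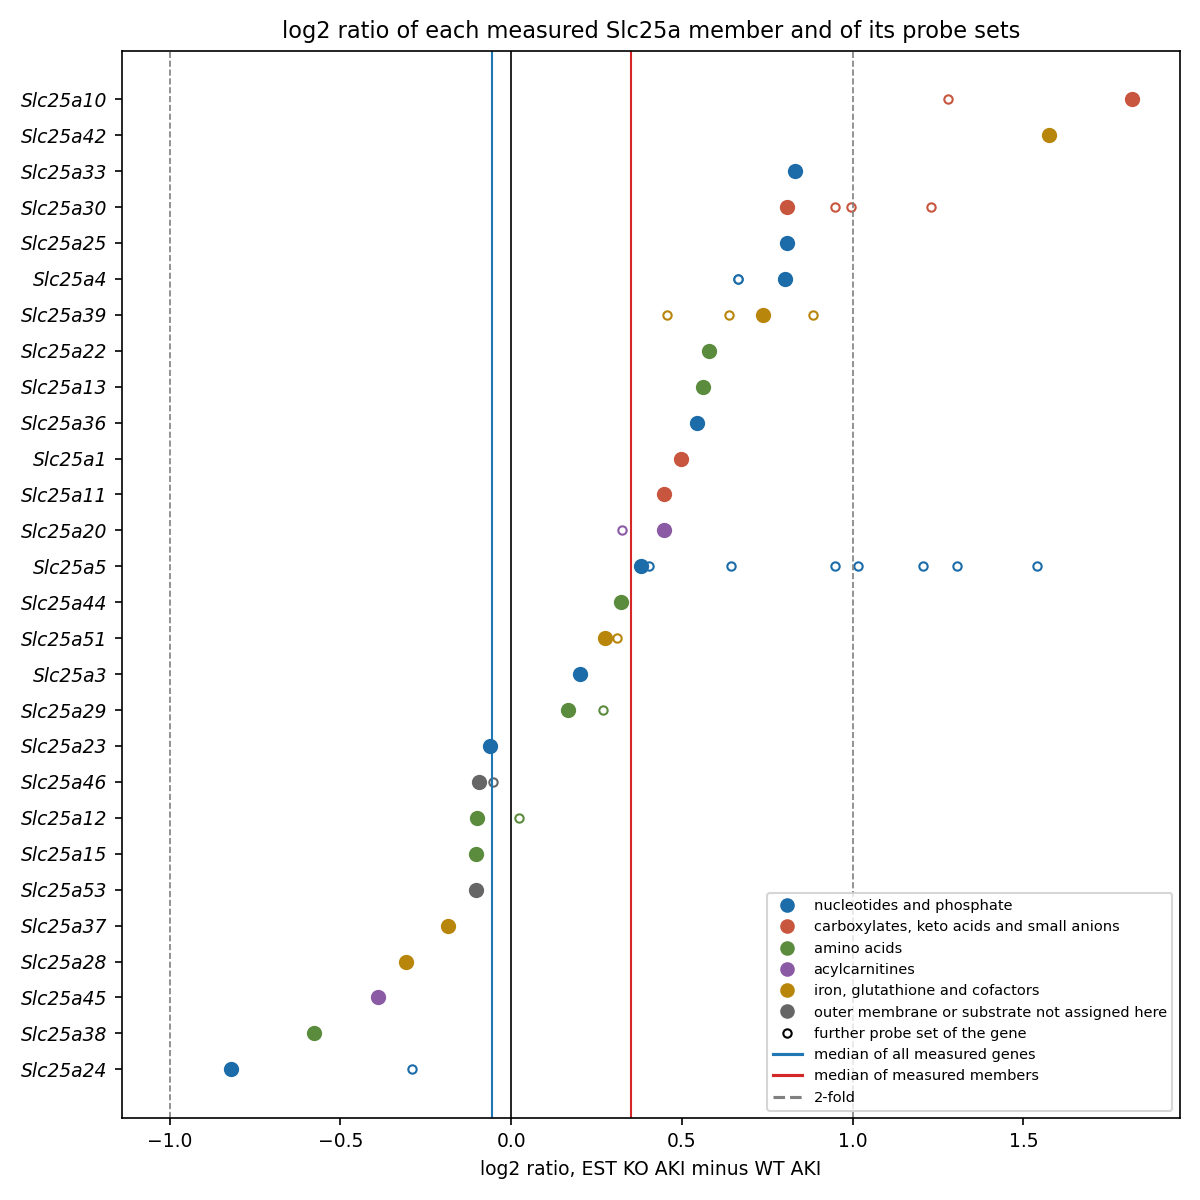
log2 ratio (EST KO AKI minus WT AKI) of the brightest probe set of each measured member (large filled circles) and of its other measured probe sets (small open circles), coloured by role. The red line marks the members' median of 0.35, the blue line the median of all measured genes at -0.06, and the dashed lines 2-fold. Slc25a10 and Slc25a42 are the members whose large circle lies beyond the dashed line.

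The bases upstream of the start site are shown for the members with the highest ratios, Slc25a10 and Slc25a42, for the kidney-rich carrier Slc25a30, and for Slc25a24, which had the lowest ratio. Each run is the 250 bases before the RefSeq start on GRCm38.p6, written 5′ to 3′ on the gene's own strand. The windows are chr11:120491587-120491836 on the plus strand for Slc25a10, chr8:70212282-70212531 on the minus strand for Slc25a42, chr14:75787038-75787287 on the minus strand for Slc25a30, and chr3:109122899-109123148 on the plus strand for Slc25a24. Capitals mark matches, on either strand, to GC boxes (GGGCGG) or CCAAT boxes (CCAAT).
Slc25a10: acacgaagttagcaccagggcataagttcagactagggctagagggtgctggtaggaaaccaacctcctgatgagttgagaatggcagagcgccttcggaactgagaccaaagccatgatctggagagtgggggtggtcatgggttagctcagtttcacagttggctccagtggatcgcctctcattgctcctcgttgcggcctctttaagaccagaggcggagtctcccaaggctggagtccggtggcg
Slc25a42: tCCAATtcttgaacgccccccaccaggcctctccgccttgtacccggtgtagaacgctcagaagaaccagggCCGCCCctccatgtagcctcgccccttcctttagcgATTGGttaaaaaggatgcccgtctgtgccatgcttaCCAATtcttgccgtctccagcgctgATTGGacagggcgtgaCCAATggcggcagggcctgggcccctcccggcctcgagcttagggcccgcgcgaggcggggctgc
Slc25a30: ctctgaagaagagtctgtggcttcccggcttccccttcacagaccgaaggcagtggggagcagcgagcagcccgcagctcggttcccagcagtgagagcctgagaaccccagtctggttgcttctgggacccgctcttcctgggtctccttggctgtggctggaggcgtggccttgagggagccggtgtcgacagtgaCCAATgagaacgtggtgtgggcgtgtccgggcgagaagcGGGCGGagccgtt
Slc25a24: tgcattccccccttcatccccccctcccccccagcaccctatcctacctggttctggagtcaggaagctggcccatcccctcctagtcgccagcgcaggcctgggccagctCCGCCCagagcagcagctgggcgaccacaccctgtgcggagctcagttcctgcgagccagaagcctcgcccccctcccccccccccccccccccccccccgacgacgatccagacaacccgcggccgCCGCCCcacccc

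The Slc25a42 window held 5 CCAAT boxes, at 249, 142, 106, 81 and 65 bases before the start, a number reached by 0.213% of 32851 windows of this length. The Slc25a30 window held 1 CCAAT box, 52 bases before the start, and the windows of Slc25a10 and Slc25a24 held none. A window was given for 24 of the 28 measured members, and 14 of them (58.3%) held a CCAAT box, compared with 39.8% of 6073 measured genes. Among the higher members 11 of 16 held one, and among the lower members 3 of 8. The shares among all higher and all lower measured genes were not counted, so no link to direction is drawn. The GC box was in 19 of 24 (79.2%), compared with 65.1% of measured genes. The ETS core CCGGAAG was in 4 of 24, the NRF1-type palindrome in 1, that of Slc25a3, and the ERR site AAGGTCA in none, compared with 15.6%, 9.62% and 3.51% of measured genes. No matches overlap in the windows shown, both strands were searched for every motif, and a match in these letters is a description of the window only.

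Carriers of nucleotides and phosphate were mostly higher in the EST KO pool: of the 8 that were measured, 6 lay above 0 and 2 below, around a median log2 ratio of 0.46. Slc25a4, which encodes the ADP/ATP carrier ANT1 of heart, muscle and other tissues, read 3191 in WT and 5565 in EST KO, 1.74-fold higher. Its other measured probe sets read 2002 and 3171, and 1351 and 2140, so all 3 gave log2 ratios between 0.66 and 0.80. Its 3 probe sets thus gave nearly the same ratio.

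Slc25a5, the gene of the widely expressed ADP/ATP carrier ANT2, was higher in the EST KO pool on all 8 of its probe sets, but by sizes that ranged from log2 0.38 to 1.54. The brightest probe set read 16647 and 21674, a log2 ratio of 0.38 and the smallest of the 8. The probe set with the largest ratio read 1303 and 3787, 2.91-fold apart, and the median of the 8 log2 ratios was 0.98. In all, 4 of the 8 probe sets were at least 2-fold higher. The direction for Slc25a5 is thus shared by its probe sets, while its size depended on the probe set. Of the 8, 6 are of the _x_at kind, which can read more than 1 gene, and RefSeq lists a Slc25a5 pseudogene. Without such probe sets the gene was read at 5397 and 12444, a log2 ratio of 1.21. Its other probe set not of that kind read 2552 and 3374, a log2 ratio of 0.40. The mean over all its probe sets was 0.93.

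**Figure D3:**
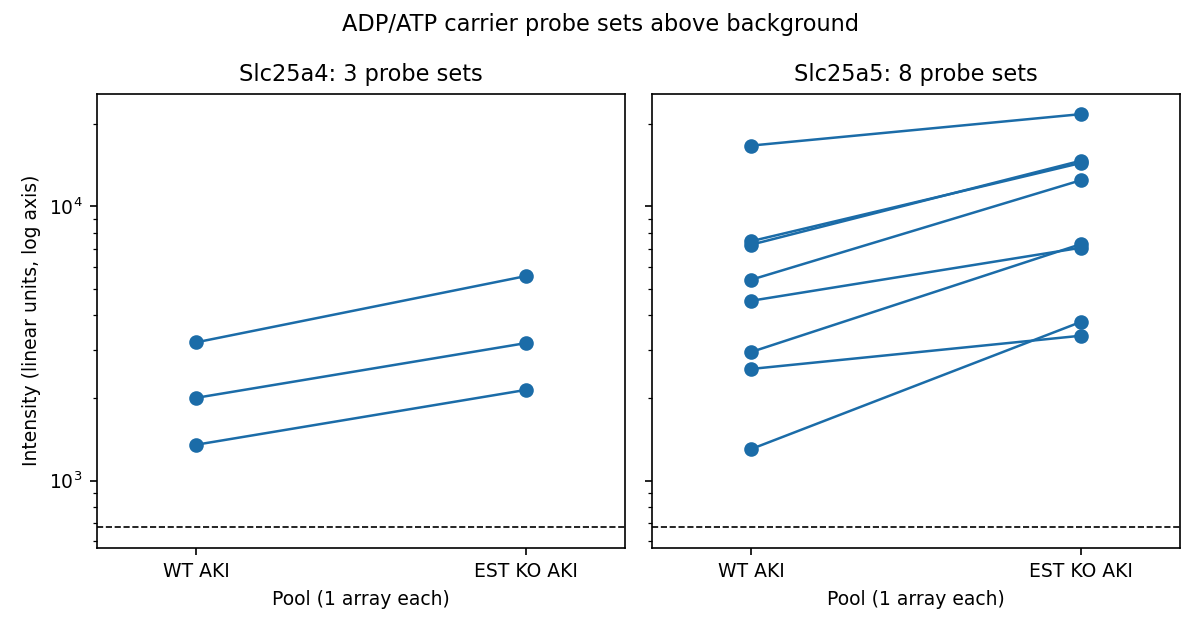
Intensity, on a log axis, of each probe set above background for the ADP/ATP carrier genes Slc25a4 (3 probe sets) and Slc25a5 (8 probe sets) in the WT AKI and EST KO AKI pools, with 1 line per probe set and a dashed line at the WT background of 676.1. All 11 lines slope upward, with nearly equal slopes for Slc25a4 and unequal slopes for Slc25a5.

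Slc25a3, the phosphate carrier that supplies ATP synthase, read 24196 and 27825, 1.15-fold higher. The ATP synthase genes and their regulators, which use what these carriers import, had 17 of 17 measured genes on the higher side, none by 2-fold, and a median of 0.38. The ATP synthase c subunit gene Atp5g1 was 1.82-fold higher (1819 and 3301), the alpha subunit gene Atp5a1 higher by 0.59 on the log2 scale (12236 and 18388), and Atpif1, the ATPase inhibitor, 1.64-fold higher (1481 and 2425). A second probe set of Atpif1 had a log2 ratio of -0.35. Slc25a3 and the ADP/ATP carriers lay on the same side as the enzyme they serve, with Slc25a3 the nearest of these carriers to 0. The log2 ratio of Slc25a3, 0.20, was within the SD of 0.28 between probe sets. It fell to 0.04 with the level-dependent trend removed. The median of the ATP synthase list ranged from 0.25 to 0.42 over the alternatives.

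The calcium-regulated carriers of ATP-Mg and phosphate went different ways. Slc25a25 (SCaMC-2) read 847.0 and 1482, 1.75-fold higher, from 1 measured probe set. Its other probe sets, not higher or nearly level, lay below background in both pools (458.5 and 338.2, and 245.9 and 247.2). Slc25a24 (SCaMC-1) read 1919 and 1086, 1.77-fold lower, and its ratio lay above only 2.75% of measured genes. The second probe set of Slc25a24 read 780.6 and 457.1, the latter below background, and was at least 1.22-fold lower. Slc25a23 (SCaMC-3) read 1081 and 1035, a log2 ratio of -0.06 that turned to 0.03 with the level-dependent trend removed. The ratios of Slc25a24 and Slc25a25 were 1.63 apart on the log2 scale. The SD of 0.28 taken from probe sets is for 1 ratio, so it is smaller than that of a difference between 2. The contrast of these genes could not be tested between mice, with 1 array per pool. With a pseudocount the ratios drew closer, to -0.59 for Slc25a24 and 0.48 for Slc25a25.

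Both pyrimidine nucleotide carriers were higher. Slc25a33 (PNC1) read 820.7 and 1459, 1.78-fold higher, and Slc25a36 (PNC2) read 795.2 and 1160, 1.46-fold higher. The WT values of both lay close to the background of 676.1, and with a pseudocount the log2 ratio of Slc25a33 was 0.49 in place of 0.83. Slc25a17, the peroxisomal carrier PMP34, the testis ADP/ATP carrier gene Slc25a31, and Slc25a41 were below background in both pools.

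Carriers of carboxylates and related anions all had more signal in EST KO where measured (4 of 4), and their median was 0.65. Slc25a10, the dicarboxylate carrier that exchanges malate or succinate for phosphate or sulfur anions, had the highest ratio of the family. Its brightest probe set read 1508 in WT and 5313 in EST KO, 3.52-fold higher, and its other probe set read 1745 and 4239, 2.43-fold higher. Both probe sets were at least 2-fold higher, and the ratio of the brightest lay above 99.5% of measured genes.

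Slc25a30, the kidney mitochondrial carrier KMCP1, was higher on all 4 of its measured probe sets. The brightest read 4694 and 8221, 1.75-fold higher. The others read 2878 and 5558, 1294 and 3036, and 684.7 and 1365, with log2 ratios of 0.95, 1.23 and 0.995. The brightest probe set again gave the smallest of these ratios, and 1 of the 4 was at least 2-fold higher. Slc25a1, the citrate carrier, read 2592 and 3660, 1.41-fold higher, and Slc25a11, the oxoglutarate-malate carrier, read 1396 and 1905, 1.36-fold higher.

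Enzymes that use or make the carried carboxylates were higher for 15 of 18 measured genes, 3 by 2-fold or more, around a median of 0.59. Pck1, which turns oxaloacetate into phosphoenolpyruvate, was 6.27-fold higher (701.5 and 4396, log2 1.87 with a pseudocount in place of 2.65). Gpd1, the cytosolic glycerol-3-phosphate dehydrogenase, was 2.38-fold higher (936.7 and 2232), and Pcx, pyruvate carboxylase, 2.35-fold higher (2523 and 5926). With the mean of their probe sets Gpd1 (0.59) and Pcx (0.88) came under 2-fold, and a pseudocount took Gpd1 to 0.83. Acly, which cleaves the citrate that Slc25a1 exports, went the other way: it read 4392 and 2962, 1.48-fold lower.

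Amino acid carriers were split, with 4 of 7 measured members higher and 3 lower, a median of 0.17, and none 2-fold apart. Slc25a22, a glutamate carrier, read 1355 and 2025, 1.49-fold higher. Slc25a44, which carries branched-chain amino acids, read 1195 and 1494, 1.25-fold higher. The other probe sets of Slc25a44 lay below background in both pools and read lower in EST KO (584.0 and 573.8, and 666.5 and 539.5). Slc25a29, a carrier of basic amino acids, read 1716 and 1924, 1.12-fold higher. Slc25a15, the ornithine carrier, read 1738 and 1619, a log2 ratio of -0.10 within the SD between probe sets.

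The aspartate-glutamate carriers of the malate-aspartate shuttle differed from each other. Slc25a13 (citrin) read 1238 and 1828, 1.48-fold higher. Slc25a12 (aralar) read 823.2 and 768.6, and its second measured probe set 758.2 and 769.7, with log2 ratios of -0.10 and 0.02. The sign of Slc25a12 is unsettled, since it also turned with the level-dependent trend removed (0.01). The enzymes of that shuttle, Got1 (1.68-fold), Got2 (1.16-fold), Mdh1 (1.43-fold) and Mdh2 (1.18-fold), were each higher. They were named after their values were seen.

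Slc25a38, which brings glycine into mitochondria for heme synthesis, read 1946 and 1305, 1.49-fold lower, on its single probe set. The glycine cleavage and other amino acid enzymes went mostly the other way, with 9 of 11 measured genes higher, 4 by 2-fold or more, around a median of 0.86. Gldc, the glycine decarboxylase, was 4.45-fold higher (813.2 and 3620, log2 1.52 with a pseudocount in place of 2.15), and Prodh, proline dehydrogenase, 3.15-fold higher (1361 and 4280). Arg2, the mitochondrial arginase that makes ornithine, was at least 4.61-fold lower (2945 and 624.2, the latter below background). The log2 ratio of Arg2 was -1.26 with the mean of its probe sets and -1.52 with a pseudocount, in place of -2.21.

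The carnitine-acylcarnitine carrier Slc25a20, which brings long-chain fatty acids in for oxidation, read 1027 and 1400, 1.36-fold higher. Its other probe set read 1066 and 1335, 1.25-fold higher. Slc25a45, a relative of it, read 2299 and 1755, 1.31-fold lower. Slc25a47, also grouped with Slc25a20 here, lay below background in both pools (533.9 and 508.9). Genes of the carnitine shuttle and long-chain oxidation were evenly divided, 5 higher and 5 lower of 10 measured, with a median of 0.01 that changed sign between alternatives (-0.16 to 0.11). Cpt1a (6139 and 5989) and Cpt2 (3820 and 3744), the carnitine palmitoyltransferases on either side of the carrier, had log2 ratios of -0.04 and -0.03. Crot, the peroxisomal carnitine octanoyltransferase, was 2.11-fold higher (1303 and 2755), but its probe sets opposed each other, and it came under 2-fold with their mean (0.45) and with a pseudocount (0.78). Slc22a5, the plasma membrane carnitine transporter, was 1.39-fold higher (3054 and 4256), and Acadm, a medium-chain acyl-CoA dehydrogenase, 1.33-fold higher (5938 and 7881).

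Among carriers of iron, glutathione and cofactors, 3 of the 5 measured lay above 0 and 2 below, around a median of 0.28. Slc25a42, which takes coenzyme A into mitochondria, read 821.1 in WT and 2445 in EST KO, 2.98-fold higher, and its ratio lay above 99.2% of measured genes. The WT value stood not far above the background of 676.1, and the second probe set of the gene was below background in both pools (48.0 and 20.3), so the ratio rests on 1 probe set. Coasy, which makes coenzyme A, was 1.84-fold higher (1627 and 2987). A second probe set of Coasy had a log2 ratio of 0.14, and the mean of its probe sets was 0.51. Pank1, the kinase that starts the synthesis of coenzyme A, was 1.40-fold higher (1042 and 1455). Nadk2, the mitochondrial NAD kinase, was at least 1.57-fold higher (662.8 and 1058, the former below background). That cofactor list as a whole had 6 of 11 measured genes higher, none at least 2-fold, and a median of 0.11 that ranged from -0.10 to 0.17 over the alternatives.

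Slc25a39, a carrier of glutathione, was higher on all 4 measured probe sets. The brightest read 9672 and 16110, 1.67-fold higher, and the log2 ratios of the 4 ran from 0.45 to 0.88. Its relative Slc25a40 was below background in both pools (106.4 and 144.9). Slc25a51, the NAD carrier, read 1666 and 2016, 1.21-fold higher, with 968 and 1201 on its other measured probe set.

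Both mitoferrins, the carriers that bring iron in for heme and iron-sulfur clusters, were lower in the EST KO pool, by small amounts. Slc25a28 (mitoferrin 2) read 2501 and 2022, 1.24-fold lower. Slc25a37 (mitoferrin 1, the erythroid form) read 747.4 and 657.5, close to background in both pools, with a log2 ratio of -0.18 within the SD between probe sets. Alas2, the erythroid form of the first heme enzyme, was below background in both pools (321.9 and 154.2), as was Hba-a1, an alpha globin gene (597.5 and 427.9). On a list of 11 red blood cell markers, 7 had a singly named probe set and only Tfrc, higher in EST KO, was measured. The beta globin genes listed had no such probe set, so globin RNA as a whole was not read. Of the iron, heme and iron-sulfur partners, 7 of 11 measured genes were higher and none at least 2-fold, with a median of 0.24. Tfrc, the transferrin receptor, was 1.53-fold higher (1947 and 2987), Nfs1, the cysteine desulfurase of cluster assembly, 1.45-fold higher (2909 and 4209), and Fdx1, a ferredoxin, 1.40-fold higher (2531 and 3548).

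The measured members outside these roles had small differences. Slc25a46, an outer membrane protein of mitochondrial dynamics, read 1338 and 1252, a log2 ratio of -0.10, and -0.05 on its second probe set. Slc25a53 read 1413 and 1315, a log2 ratio of -0.10. Of 5 listed relatives whose symbols fall outside the rule, 4 had a singly named probe set and 2 were measured. Neither of these 2, Mtch1 and Mtch2, was higher at its brightest probe set. Ucp2, also listed, was not read. Mtch1 was 1.40-fold lower (1271 and 907.6), and Mtch2, another outer membrane relative, was at -0.23 (1757 and 1496) but at 0.05 with the mean of its probe sets. Ucp1, the brown fat uncoupling protein, and Ucp3, its muscle form, were below background in both pools (46.4 and 22.4, and 346.5 and 291.5).

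Other channels and transporters of mitochondria were set beside the family. Of 13 measured genes, 10 were higher, 2 lower and 1 without an order, 2 of them at least 2-fold higher, with a median of 0.25. Vdac1, the main pore of the outer membrane, was 3.21-fold higher (4089 and 13136). Its 4 probe sets all lay above 0, from log2 0.65 to 1.68, and leaving out its _x_at and _s_at probe sets gave 0.85, under 2-fold. Sfxn1, a mitochondrial serine transporter, was 2.01-fold higher (2398 and 4823, log2 0.83 with a pseudocount), and Mpc1, a subunit of the pyruvate carrier, 1.69-fold higher (8520 and 14379). Regulators of mitochondrial biogenesis were less one-sided, with 5 of 9 measured genes higher and a median of 0.22. Ppara, a receptor for fatty acids, was at least 1.58-fold higher at its brightest probe set (674.6 and 1066). Its second measured probe set had a log2 ratio of 0.07, and the mean of its probe sets was 0.36. Tfb2m, a mitochondrial transcription factor, was 1.45-fold higher (979.9 and 1420). Gabpa, an ETS factor of mitochondrial genes, was 1.36-fold higher (774.2 and 1056). Ppargc1a, which encodes the coactivator PGC-1alpha, read 723.1 and 576.7, the latter below background. It was named after its values were seen.

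**Figure D4:**
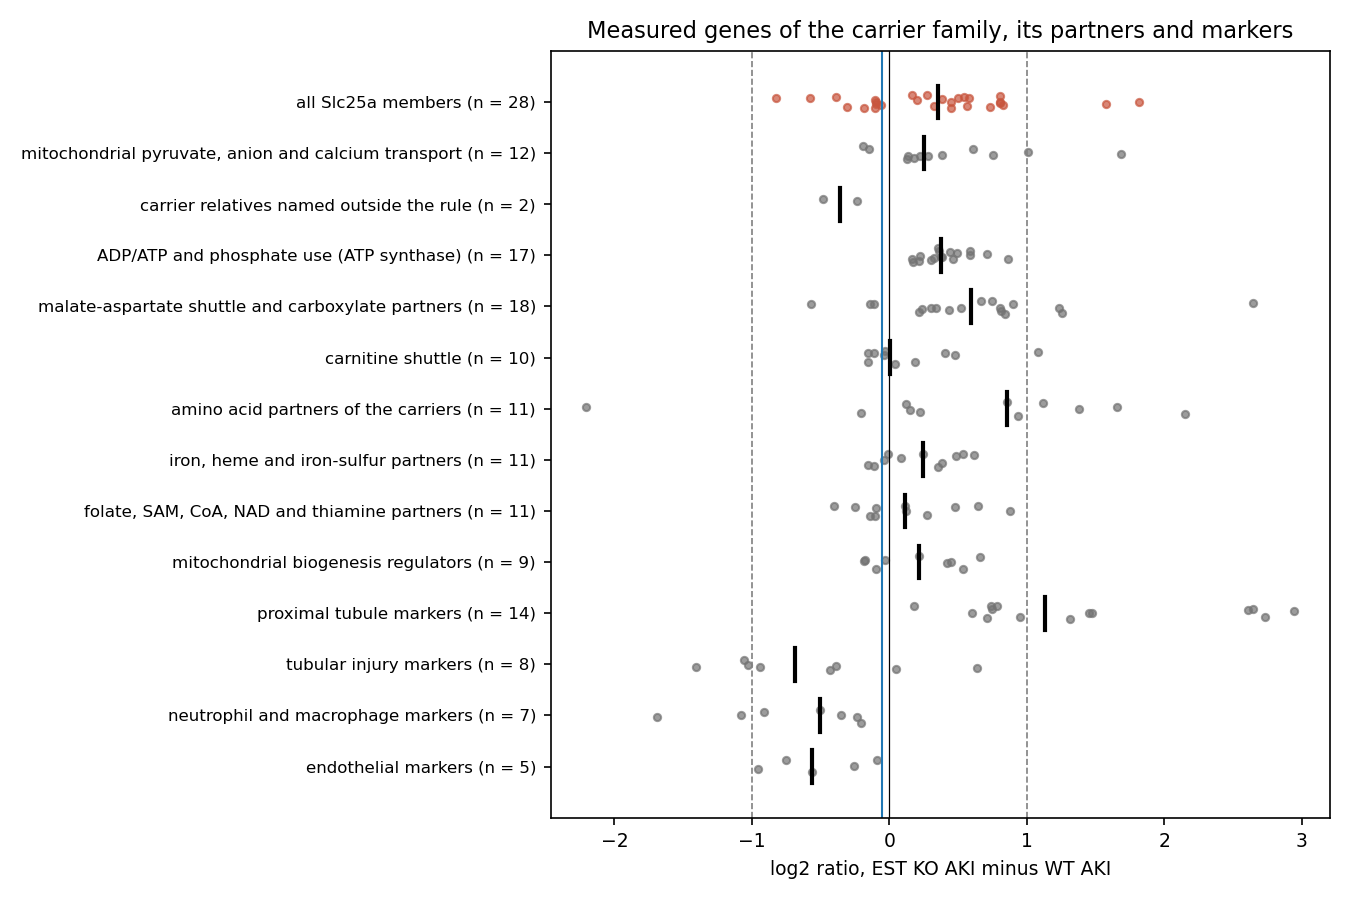
log2 ratio (EST KO AKI minus WT AKI) of each measured gene with an order, for the carrier family (red), its partner lists and kidney cell markers (grey). Black bars mark medians, the blue line the median of all measured genes and the dashed lines 2-fold. The family's median of 0.35 lies below that of the proximal tubule markers at 1.13 and on the other side of 0 from the tubular injury markers at -0.69.

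Markers of cell types also differed between the pools. Proximal tubule markers were higher for 14 of 14 measured genes, 7 by 2-fold or more, around a median of 1.13, and their summed intensity over 15 genes went from 65109 (WT) to 145313 (EST KO). Markers of the loop, distal tubule and collecting duct had a median of 0.26 (7 of 11 measured genes higher). Tubular injury markers had a median of -0.69 (6 of 8 lower; summed intensity 105973 and 64065 over 9 genes), neutrophil and macrophage markers -0.51 (7 of 7 lower; 16073 and 9908 over 10 genes) and endothelial markers -0.57 (5 of 5 lower; 7550 and 5133 over 6 genes). The part of cell composition in the ratios of the carriers was not tested. Muscle markers and testis and brain markers had no measured gene, with 7 and 6 on the array. Of 5 adipocyte markers only Fabp4, which other cells also express, was measured (3362 and 3451).

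The 16 members below background in both pools ranged up to 533.9 (WT) and 621.4 (EST KO), and their ratios are not counted among those of the family. They were Slc25a2, Slc25a14, Slc25a16, Slc25a17, Slc25a18, Slc25a26, Slc25a27, Slc25a31, Slc25a32, Slc25a34, Slc25a35, Slc25a40, Slc25a41, Slc25a47, Slc25a48 and Slc25a54. The nearest to the limit was Slc25a34, at 621.4 in the EST KO pool, where background was 638.3, and 106.1 in the WT pool. The nearest member inside it was Slc25a37, at 657.5 in the EST KO pool.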

How the data were processed

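Biotinylated cRNA from 8 ug of total RNA per pool was hybridised to Affymetrix arrays, per the labels' protocols. The deposited values are linear intensity, 1 value for each of 45101 probe sets. To judge by these numbers, the authors had scaled each array so that its mean without the lowest and highest 2% was 500.0. The scanner software, like the probe summary, is not given in the sources used here. Array medians were 261.8 (WT) and 242.4 (EST KO), within 10%, so the deposited intensity values were used unscaled.

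Gene names came from the platform annotation (1 symbol for 34958, several for 932, none for 9211) and symbols updated by Entrez ID through RefSeq (GRCm38.p6), which matched 34754. Each gene was read from its brightest probe set (highest mean of the 2 arrays). Values below background were set to background before the log2 ratio was taken, so folds against them are bounds ("at least"). Genes above background in at least 1 pool were called measured. All measured members were named, with up to 3 genes of each partner list by size of log2 ratio, and with further genes chosen after their values were seen: Acly, Alb, Cyp2e1, Cps1, Slc5a12, Alas2, Hba-a1, Cpt1a, Cpt2, Fabp4 and those so marked. Members and lists were chosen with earlier results of these data known. The computation was tested on simulated data and run in Python 3.11.15 with pandas 2.3.3. Promoters came from RefSeq, for 34 of 44 members. No replicate arrays exist, so no test was run.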

Additional observations from a re-analysis of the deposited data

How the results depend on the processing

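Over 8 alternatives (background at the 75th percentile, no floor, a pseudocount equal to the background, the mean of probe sets, no _x_at or _s_at probe sets, quantile normalization, median centring, and removal of the level-dependent trend), the median log2 ratio of measured members ranged from 0.23 (pseudocount) to 0.40 (median centring), and 18 to 22 members were higher. Slc25a10 (log2 1.45 to 1.86) and Slc25a42 (1.04 to 1.63) were at least 2-fold higher in each of the 8, and Slc25a5 joined them without _x_at and _s_at probe sets. No member was at least 2-fold lower in any. Of 28 members, 26 kept their sign in all 8, the exceptions being Slc25a12 and Slc25a23. The 75th percentile background raised the measured members from 28 to 36. No scaling moved the median of all measured genes by over 0.06. The alternatives for partner genes were chosen after seeing the data. No paired analysis was possible because each genotype was 1 pool on 1 array. For the same reason no replicate could be left out. Members near background, such as Slc25a37, Slc25a12, Slc25a33 and Slc25a36, have the least signal over background.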

Other observations

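With background at the 75th percentile of the silent gene families (348.1 in WT and 325.8 in EST KO), 8 further members were measured. Slc25a34 was at least 1.79-fold higher (106.1 in WT and 621.4 in EST KO), the largest bound or ratio among the 8. None of the 8 is shown to be 2-fold apart, although a bound does not limit the difference from above. Slc25a27, a brain-rich relative of the uncoupling proteins, was 1.26-fold higher (440.3 and 555.5), Slc25a16 at least 1.15-fold higher (278.6 and 402.0) and Slc25a48 1.04-fold higher (356.9 and 372.5). Slc25a17, the peroxisomal carrier, was at least 1.31-fold lower (425.7 and 255.2), Slc25a2, the second ornithine carrier, 1.33-fold lower (454.5 and 340.6) and Slc25a47 1.05-fold lower (533.9 and 508.9). Slc25a35 (303.9 and 331.7) had no order.

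Some members are close neighbours in the genome, and where both had a probe set only 1 of the pair was above background. Slc25a23 was measured and the adjacent Slc25a41 was not (13.4 and 5.1). Slc25a24 was measured and Slc25a54, with 1 annotated gene between them, was not (181.3 and 151.1). Slc25a29 was measured and Slc25a47, also with 1 gene between them, was not. Slc25a5 lies next to Slc25a43, which was not analysed here. Each probe set was held only against background, which 16 of all 44 members did not reach in either pool. Values of different probe sets are not compared with each other as levels.

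The 1 probe set annotated to both Slc25a37 and Gm16867 lay below background (9.7 and 10.1) and was used for neither gene.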
